A study of Mus musculus with 29 samples.

Results

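The genes described here are the G1 cell-cycle regulators of the mouse myoblast line C2C12: the D-type cyclins Ccnd1, Ccnd2 and Ccnd3, the cyclin-dependent kinases Cdk4, Cdk6 and Cdk2, the kinase inhibitors Cdkn1a, Cdkn1b and Cdkn1c, and the retinoblastoma gene Rb1. They were chosen by symbol and not by a rule on measured values, though earlier results of these data were known. All 10 had reads among the 15954 genes with reads in the 3' end libraries. They held 124 of the 125369 poly(A) site entries. D-type cyclins bind Cdk4 or Cdk6, and these complexes begin the phosphorylation of the Rb protein that lets a cell leave G1, a step that Cdk2 completes. The Cdkn1 proteins (p21, p27 and p57) bind cyclin-kinase complexes and hold cells in G1, and unphosphorylated Rb keeps E2F transcription factors silent. In skeletal muscle, leaving the cell cycle is a condition for myoblasts to fuse into myotubes, and p21, p57, cyclin D3 and Rb are known for their part in that exit.

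The study fractionated C2C12 cells into membrane and cytosol and asked how RNAs with different 3' ends distribute between endoplasmic reticulum and cytosol. Of the 29 samples, 26 were 3'READS+ libraries, in which 1 read marks the end of 1 polyadenylated transcript, and the other 3 were RNA-seq libraries. Gradient libraries came from differentiating and from proliferating cells, from the membrane and the cytosol fraction of each, and from the polysome and the monosome part of each fraction, which made 8 groups of 2 replicates. A puromycin series of proliferating cells, a pair of whole-fraction libraries of proliferating cells, and RNA-seq of the membrane, insoluble and cytosol fractions of proliferating cells had 1 library per sample.

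All groups were the C2C12 line with no genetic change named in the labels. Differentiating polysome libraries were labelled as grown with 2% horse serum, whereas differentiating monosome libraries carried the label of 10% fetal bovine serum that all proliferating libraries had, and the files do not settle which medium the monosome cells had. The puromycin series comprised untreated cells and cells given 100 µg/ml puromycin, which releases nascent chains from ribosomes, for 0, 30 or 60 min. The labels did not say whether replicates were separate cultures, so p-values measure the spread between these libraries, which may be technical. In bulk libraries, fewer cells with an RNA and less of it per cell cannot be told apart.

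Gradient libraries held 2964852 to 8237846 reads, puromycin libraries 5506600 to 11631401, and the whole-fraction pair 6150000 in membrane and 5881983 in cytosol. Levels are given as CPM, the reads of a gene scaled to the same total in every library. Since 1 read stands for 1 transcript end, 3' end levels of different genes can be set side by side. Summed over the 13 myotube markers with reads of 14 listed, differentiating libraries held 5411 to 79622 CPM and proliferating gradient libraries 202 to 365 CPM. Myog, the transcription factor that marks committed myocytes, had 69.8 to 506 CPM in differentiating and 0.187 to 3.49 CPM in proliferating libraries. The 5 myoblast markers summed to 784 to 1299 CPM in differentiating and 183 to 576 CPM in proliferating gradient libraries. Des alone held 610 to 1246 CPM in differentiating and 122 to 489 CPM in proliferating ones. Of 4 tested, Des (2.19) and Myod1 (1.14) rose and none fell. Without the differentiating replicate 2 libraries 2 rose and 2 fell, beside 14.1% of all genes higher and 18% lower. Without those of replicate 1, 1 rose and 0 fell, beside 11.6% higher and 14.8% lower. Pax7 was too low to test (0 CPM in differentiating and 0 to 0.821 CPM in proliferating libraries). Markers of other cell types summed to at most 2.38 CPM in any library, with Epcam, Krt8 and Cidec unlisted. The 8 markers of the endoplasmic reticulum summed to 1377 to 6576 CPM in membrane gradient libraries and 181 to 710 CPM in cytosol ones.

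The 4 differentiating libraries of replicate 1 stood apart from those of replicate 2. Their myotube markers summed to 30225 to 79622 CPM, against 5411 to 13090 CPM in replicate 2, a ratio of 4.35 to 6.08 within each combination of fraction and gradient part. For results on cell state, fits without the libraries of either differentiating replicate were added after seeing the data. The part of this difference in any result was not tested.

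With all gradient libraries fitted, cell state changed most of these genes. With the mean taken over the 4 combinations of fraction and gradient part, 7 of 10 passed the threshold (adjusted p under 0.05 in the quasi-likelihood test of edgeR) between differentiating and proliferating cells, where 35.5% of all genes tested passed. Cdkn1c, Cdkn1a, Ccnd3 and Rb1 rose, against 16.3% of all genes. Ccnd1, Cdk6 and Cdk2 fell, against 19.2% of all genes. The calls of Cdk2, Cdk6 and Cdkn1c depended on the differentiating replicate 1 libraries, as given below. The median log2 fold change over all genes tested was -0.09. Deviations of same-numbered libraries correlated at 0.469 to 0.725 within a state. The fit took these libraries as independent, so the SE and p-values given for cell state can be too small.

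**Figure D1:**
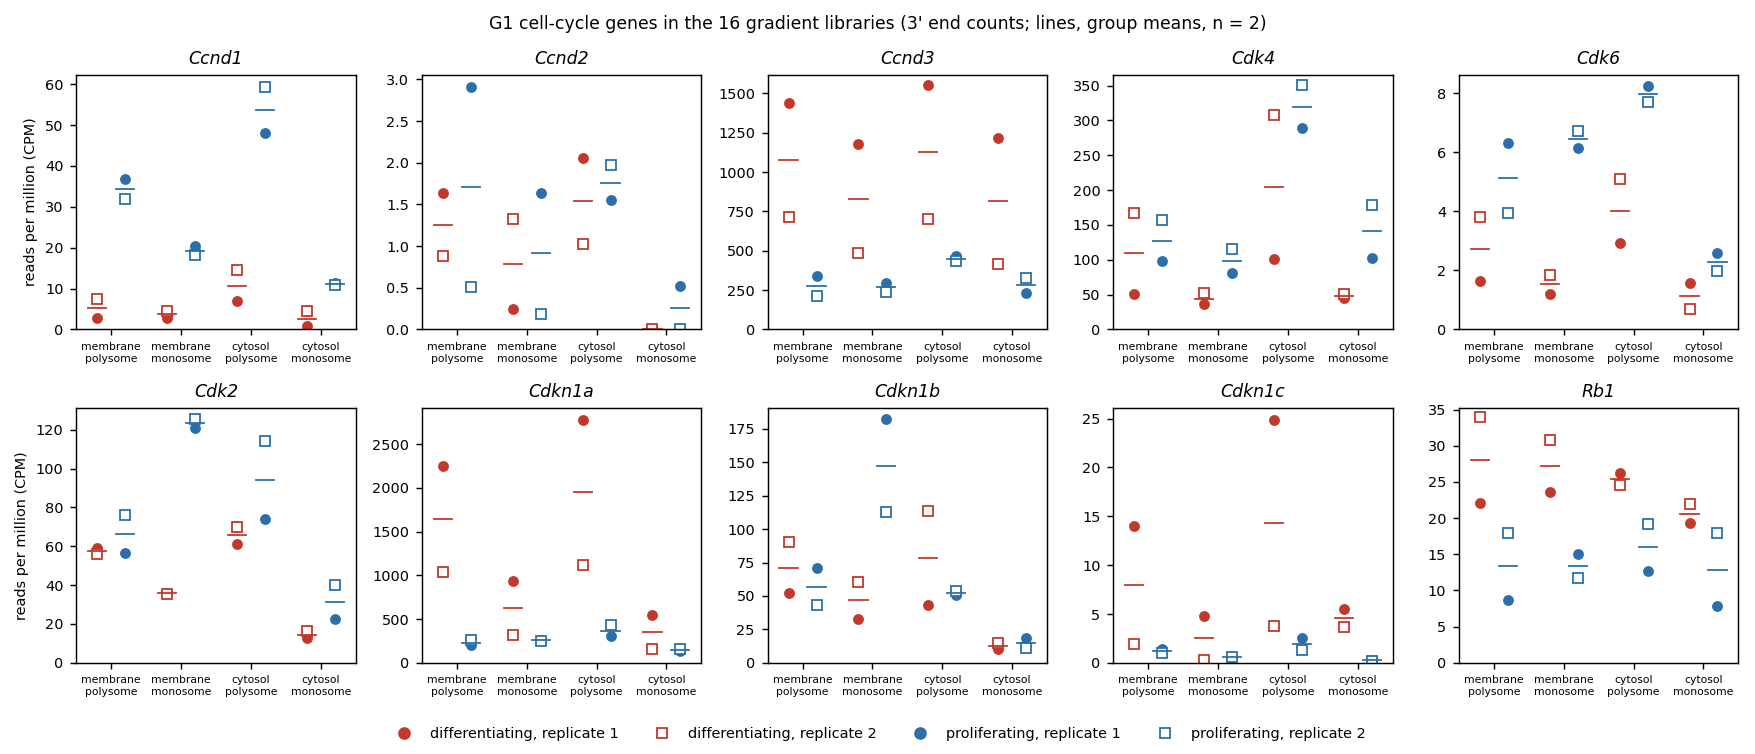
CPM of each gene (vertical axes, each from 0) in the 16 gradient libraries, by fraction and gradient part (horizontal axis), with replicate 1 as filled circles, replicate 2 as open squares and the mean of the pair as a line. Ccnd1 sits at 0.783 to 14.4 CPM in differentiating and 10.8 to 59.4 CPM in proliferating libraries, and Rb1 at 19.3 to 33.9 CPM in differentiating and 7.81 to 19.2 CPM in proliferating libraries.

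**Figure D2:**
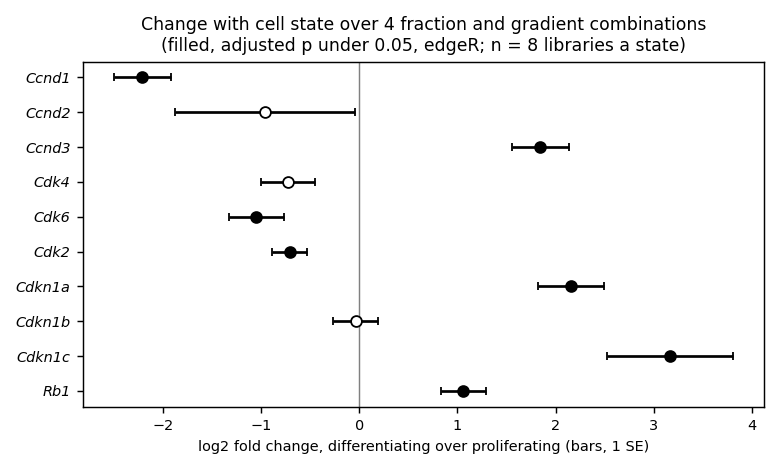
Log2 fold change of each gene in differentiating over proliferating cells (horizontal axis), with bars of 1 standard error and filled points for an adjusted p under 0.05. Cdkn1c at 3.17 and Ccnd1 at -2.21 lie at the ends of the range, and Cdkn1b at -0.037 lies at the zero line.

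The D-type cyclins went in opposite directions. Ccnd1, the cyclin induced by growth factors in cycling cells, had 2.86 and 7.49 CPM in differentiating membrane polysomes, against 36.9 and 31.8 CPM in proliferating ones. In cytosol polysomes it had 7.03 and 14.4 CPM in differentiating and 48.0 and 59.4 CPM in proliferating cells. Differentiating monosome libraries held 2.87 and 4.51 CPM in membrane and 0.783 and 4.38 CPM in cytosol, against 20.3 and 18.3 CPM in membrane and 11.5 and 10.8 CPM in cytosol of proliferating cells. Every differentiating library was below both proliferating libraries of its combination. Ccnd1 fell by 2.21 on the log2 scale (SE 0.29, adjusted p 8.09e-05).

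Ccnd3, the D-type cyclin that stays on in muscle, moved the other way. Differentiating membrane polysomes held 1442 and 713 CPM, against 338 and 211 CPM in proliferating ones, and differentiating cytosol polysomes 1553 and 703 CPM, against 466 and 434 CPM in proliferating ones. In monosomes the values were 1180 and 484 CPM in membrane and 1214 and 418 CPM in cytosol of differentiating cells, against 294 and 240 CPM in membrane and 230 and 328 CPM in cytosol of proliferating cells. The libraries of the cell states did not overlap within any of the 4 combinations. The log2 fold change was 1.85 (SE 0.29, adjusted p 0.000351).

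The median Ccnd3 level was 946 CPM in differentiating and 311 CPM in proliferating libraries. For Ccnd1 the median was 4.45 CPM in differentiating and 26.1 CPM in proliferating libraries. Ccnd3 was the more abundant of the pair in every 3' end library. Ccnd2, a D-type cyclin, was near the detection limit, with 0 to 2.06 CPM in differentiating and 0 to 2.91 CPM in proliferating libraries. It did not pass the test (log2 fold change -0.96, SE 0.92, adjusted p 0.445), and a difference was not detectable at this depth.

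Both kinases that fell were lowest relative to proliferating cells in membrane monosomes. Cdk6, a partner of D-type cyclins, was at low level throughout, with 1.63 and 3.82 CPM in differentiating membrane polysomes, against 6.31 and 3.93 CPM in proliferating ones. In membrane monosomes it had 1.20 and 1.86 CPM in differentiating and 6.16 and 6.72 CPM in proliferating cells. In the cytosol it had 2.91 and 5.10 CPM in polysomes and 1.57 and 0.675 CPM in monosomes of differentiating cells, against 8.26 and 7.72 CPM in polysomes and 2.60 and 1.99 CPM in monosomes of proliferating ones. The states did not overlap in any combination, but the gap in membrane polysomes was small. Cdk6 fell by 1.05 on the log2 scale (SE 0.28, adjusted p 0.0115).

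Cdk2, which pairs with cyclins E and A, had 59.0 and 55.8 CPM in differentiating membrane polysomes, against 56.3 and 75.9 CPM in proliferating ones, and these groups overlapped. In membrane monosomes it had 36.1 and 35.6 CPM in differentiating and 121 and 126 CPM in proliferating cells. In the cytosol it had 61.2 and 70.0 CPM in polysomes and 12.5 and 16.5 CPM in monosomes of differentiating cells, against 74.0 and 114 CPM in polysomes and 22.4 and 40.2 CPM in monosomes of proliferating cells. Cdk2 fell by 0.71 on the log2 scale (SE 0.18, adjusted p 0.00803). Without the differentiating replicate 1 libraries, the fold changes of Cdk2 (-0.68, adjusted p 0.0729) and Cdk6 (-0.97, adjusted p 0.0543) missed the threshold.

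Cdk4, a kinase partner of D-type cyclins, differed between the differentiating replicates. It had 51.0 and 167 CPM in differentiating membrane polysomes and 101 and 308 CPM in cytosol polysomes, against 98.0 and 157 CPM in membrane and 289 and 350 CPM in cytosol polysomes of proliferating cells. In monosomes it had 35.9 and 52.0 CPM in membrane and 45.7 and 50.9 CPM in cytosol of differentiating cells, against 81.7 and 116 CPM in membrane and 103 and 178 CPM in cytosol of proliferating cells. The states overlapped in both polysome groups and in neither monosome group. The log2 fold change was -0.73 (SE 0.28, adjusted p 0.0554), and it passed without any one of 3 libraries: differentiating cytosol polysome replicate 2 (-0.94, adjusted p 0.0204), differentiating membrane polysome replicate 2 (-0.91, adjusted p 0.0159) and proliferating cytosol monosome replicate 1 (-0.81, adjusted p 0.0489). It was -0.35 (adjusted p 0.359) without all differentiating replicate 1 libraries and -1.30 (adjusted p 0.00754) without all replicate 2 libraries.

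RefSeq promoters of mouse build GRCm38.p6, from 250 bases before to 50 after the start, were given for 6 of the 10 genes (Cdk4, Cdk2, Cdk6, Cdkn1a, Cdkn1b and Ccnd3) and are shown for the kinases, which were lower in differentiating cells by estimate. The letters CACGTG, a form of the E-box CANNTG that Myc and related factors bind, occur 4 times in the Cdk4 promoter. They read the same on both strands, were found in 7.15% of all 32851 promoters of this length, and occurred 4 or more times in 8 of them. Cdk6 has 1 such match, and the promoters of Cdk2, Cdkn1a, Cdkn1b and Ccnd3 have 0. The matches are descriptions of sequence and say nothing of binding. The windows below run 5' to 3' along the gene, with CACGTG in capitals.
Cdk4 chr10:127063351-127063380 (+): atggcagccagtCACGTGccacacagcgta
Cdk4 chr10:127063405-127063434 (+): aagtcaaggggtCACGTGggatagcaacag
Cdk4 chr10:127063425-127063454 (+): atagcaacaggtCACGTGgccgtcagggcc
Cdk4 chr10:127063512-127063541 (+): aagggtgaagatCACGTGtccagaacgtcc
Cdk6 chr5:3343661-3343690 (+): gttctgcggcccCACGTGggtgaacccccg

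Another pattern, TTTNNCGC, was searched on both strands as a loose form of the E2F site, with N for any base. A match to it is not by itself an E2F site. The pattern matched 5.17% of all promoters. It had 1 match each in the Cdk2 and Cdk6 promoters and 0 in those of Cdk4, Cdkn1a, Cdkn1b and Ccnd3. Capitals mark it below; in Cdk2 the match is on the opposite strand.
Cdk2 chr10:128705173-128705202 (-): aaccaggaactGCGGGAAAgttgtgcagct
Cdk6 chr5:3343684-3343713 (+): acccccggtgcTTTTACGCcagcttccgaa

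Among the kinase inhibitors Cdkn1a and Cdkn1c rose and Cdkn1b did not pass the test. Cdkn1a (p21) had 2249 and 1041 CPM in differentiating membrane polysomes, against 203 and 258 CPM in proliferating ones. In cytosol polysomes it had 2780 and 1115 CPM in differentiating and 302 and 436 CPM in proliferating cells. In monosomes it had 940 and 315 CPM in membrane and 546 and 155 CPM in cytosol of differentiating cells, against 265 and 245 CPM in membrane and 134 and 160 CPM in cytosol of proliferating cells. The states overlapped only in cytosol monosomes, where differentiating replicate 2 lay inside the proliferating range. The log2 fold change was 2.16 (SE 0.34, adjusted p 0.000368).

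Cdkn1c (p57) was scarce in proliferating cells, with 0.221 to 2.58 CPM over the 8 libraries. It had 14.0 and 1.91 CPM in differentiating membrane polysomes, against 1.46 and 1.03 CPM in proliferating ones, and 24.9 and 3.74 CPM in differentiating cytosol polysomes, against 2.58 and 1.31 CPM in proliferating ones. In differentiating monosomes it had 4.78 and 0.265 CPM in membrane and 5.48 and 3.71 CPM in cytosol, against 0.616 and 0.560 CPM in membrane and 0.260 and 0.221 CPM in cytosol of proliferating cells, where each monosome library held 1 to 3 reads. The states overlapped only in membrane monosomes. The log2 fold change was 3.17 (SE 0.64, adjusted p 0.00218). It was 1.25 (adjusted p 0.132) without the differentiating replicate 1 libraries and 2.40 (adjusted p 0.103) without the membrane monosome library of that replicate.

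Cdkn1b (p27) had a log2 fold change of -0.037 (SE 0.23, adjusted p 0.917), with a range of 10.7 to 113 CPM in differentiating and 11.0 to 182 CPM in proliferating libraries. Its sign changed with the scaling, and without the differentiating replicate 1 libraries it was 0.32. Within membrane monosomes, however, it had 32.5 and 60.8 CPM in differentiating cells, against 182 and 112 CPM in proliferating cells, with no overlap.

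Rb1, whose protein binds E2F factors, had 22.0 and 33.9 CPM in differentiating membrane polysomes, against 8.74 and 18.0 CPM in proliferating ones. It had 23.7 and 30.8 CPM in membrane monosomes and 26.2 and 24.6 CPM in cytosol polysomes of differentiating cells, against 15.0 and 11.8 CPM in membrane monosomes and 12.7 and 19.2 CPM in cytosol polysomes of proliferating cells. In cytosol monosomes it had 19.3 and 21.9 CPM in differentiating and 7.81 and 17.9 CPM in proliferating cells. All 8 differentiating libraries were above all 8 proliferating ones, though the lowest (19.3 CPM) and the highest (19.2 CPM) nearly met. The log2 fold change was 1.06 (SE 0.23, adjusted p 0.00328).

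The myotube markers were not spread evenly over the replicates, and several of these genes moved with them. In all 4 combinations differentiating replicate 1 was above replicate 2 for Cdkn1a (2.16 to 3.53 times), Ccnd3 (2.02 to 2.90 times) and Cdkn1c (1.48 to 18.0 times). It was below replicate 2 in all 4 for Ccnd1 (0.179 to 0.636 times), Cdk4 (0.306 to 0.897 times) and Cdkn1b (0.383 to 0.721 times). Rb1 at 0.650 to 1.06 times and Cdk2 at 0.758 to 1.06 times were close between the replicates. The calls of Ccnd1, Ccnd3, Cdkn1a and Rb1 held without either replicate of the differentiating cells and without each single library, but the sizes moved. Without replicate 1 the log2 fold change was -1.70 for Ccnd1, 1.05 for Ccnd3, 1.21 for Cdkn1a and 1.16 for Rb1. Without replicate 2 it was -3.03 for Ccnd1, 2.35 for Ccnd3, 2.72 for Cdkn1a and 0.94 for Rb1.

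**Figure D3:**
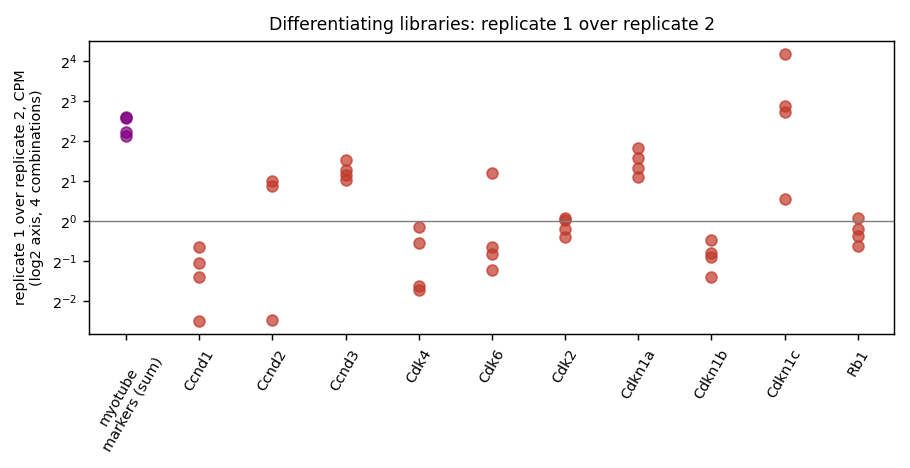
Ratio of replicate 1 to replicate 2 among differentiating libraries (vertical axis, log2 scale), with 1 point per combination of fraction and gradient part, for the summed myotube markers and for each gene. Myotube markers lie at 4.35 to 6.08, Cdkn1a and Ccnd3 above 1, and Ccnd1, Cdk4 and Cdkn1b below 1; combinations with 0 reads have no point.

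Other cell-cycle genes fell with differentiation, beside 19.2% of all genes tested and a median of -0.09 over all genes. Of 20 E2F targets of S phase, all fell (median log2 fold change -2.39), among them the replication genes Mcm10 (-3.63), Mcm5 (-2.82), Tk1 (-3.04) and Tyms (-1.75). All 16 mitotic genes fell too (median -2.36), including the kinase Plk1 (-2.57), the cyclin Ccnb1 (-2.63), and the chromosomal passenger genes Birc5 (-2.47) and Cdca8 (-2.27). Of 25 other G1/S regulators tested, 13 fell and none rose (median -1.01). Those with the lowest p were the cyclin Ccna2 (-2.87), the repressor E2f7 (-2.58), the kinase subunit Cks1b (-1.90) and the Rb relative Rbl1 (-2.04), which fell while Rb1 rose. Without differentiating replicate 1, 20 of 20 E2F targets, 15 of 16 mitotic genes and 8 of 25 other regulators fell and 1 of those regulators rose, beside 14.8% of all genes lower.

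Within the gradient, cytosolic RNA of most of these genes lay toward polysomes. In the cytosol of proliferating cells all 10 had a positive estimate of polysome over monosome, with a median log2 fold change of 1.62, against -0.02 over all genes. Ccnd1, Cdk2, Cdkn1b and Cdk6 passed, which is 4 of 10 beside 24.3% of all genes in either direction and 11.5% in that direction. In the cytosol of differentiating cells Cdk2, Cdkn1b, Cdkn1a and Cdk4 passed, again 4 of 10, beside 23.9% of all genes and 12.6% in that direction. The median there was 1.74, against 0.07 over all genes, and all 10 estimates were positive. Rb1 and Ccnd3 had the smallest estimates in both states and did not pass. Rb1 had 0.0051 in differentiating and 0.25 in proliferating cytosol, and Ccnd3 had 0.23 and 0.62 in that order. Of the E2F targets, 4 of 20 were higher in polysomes in differentiating and 6 of 20 in proliferating cytosol, and none was lower.

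Ccnd1 in the cytosol of proliferating cells had 48.0 and 59.4 CPM in polysomes, against 11.5 and 10.8 CPM in monosomes, a log2 fold change of 2.19 (SE 0.55, adjusted p 0.0112). Cdk2 had 74.0 and 114 CPM in polysomes, against 22.4 and 40.2 CPM in monosomes (1.52, SE 0.36, adjusted p 0.00872). Cdkn1b had 50.6 and 53.5 CPM in polysomes, against 18.5 and 11.0 CPM in monosomes (1.74, SE 0.47, adjusted p 0.0170). None of these groups overlapped. Cdk6 had 8.26 and 7.72 CPM in polysomes, against 2.60 and 1.99 CPM in monosomes (1.72, SE 0.55, adjusted p 0.0361). These calls depended on single libraries of the cytosol. Without polysome replicate 2 no call was kept, with adjusted p of 0.0662 for Ccnd1, 0.0729 for Cdk2, 0.0806 for Cdkn1b and 0.113 for Cdk6. Without monosome replicate 1, Ccnd1 (0.0630), Cdk2 (0.0891) and Cdk6 (0.0983) missed the threshold, and without monosome replicate 2, Ccnd1 (0.0707), Cdkn1b (0.128) and Cdk6 (0.179). Without polysome replicate 1, Cdkn1b (0.0512) and Cdk6 (0.115) missed it, and Cdk6 also without membrane polysome replicate 1 (0.0545) or 2 (0.0529) or membrane monosome replicate 2 (0.0542), without the low-count filter (0.0640) and with main-strand sites of at least 1% alone (0.0872).

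In the cytosol of differentiating cells, Cdkn1a had 2780 and 1115 CPM in polysomes, against 546 and 155 CPM in monosomes, a log2 fold change of 2.24 (SE 0.68, adjusted p 0.0300). Cdkn1b had 43.4 and 113 CPM in polysomes, against 10.7 and 14.8 CPM in monosomes (2.26, SE 0.48, adjusted p 0.00479). Cdk2 had 61.2 and 70.0 CPM in polysomes, against 12.5 and 16.5 CPM in monosomes (1.87, SE 0.37, adjusted p 0.00336). None of these groups overlapped. Cdk4 had 101 and 308 CPM in polysomes, against 45.7 and 50.9 CPM in monosomes (1.71, SE 0.57, adjusted p 0.0428). Most of these calls rested on few libraries. The Cdkn1a call was lost without cytosol polysome replicate 1 (1.26, adjusted p 0.254) or cytosol monosome replicate 2 (1.63, adjusted p 0.168), without the low-count filter (0.0520) and with the differentiating libraries fitted alone (0.112), and the Cdkn1b call without cytosol monosome replicate 1 (2.03, adjusted p 0.0510). The Cdk4 call was lost without cytosol polysome replicate 2 (0.90, adjusted p 0.346), cytosol monosome replicate 1 (1.63, adjusted p 0.178) or 2 (1.84, adjusted p 0.127), and without any one of 3 proliferating libraries, cytosol polysome replicate 1 (0.0538), cytosol polysome replicate 2 (0.0546) and membrane monosome replicate 1 (0.0504). It was also lost with DESeq2 size factors (0.0568) and with the differentiating libraries fitted alone (0.0969). Ccnd1 missed the threshold (1.76, adjusted p 0.0547), but passed without the low-count filter (0.0425) and with DESeq2 (0.0374). Without all differentiating replicate 1 libraries Cdk2 (0.127) and Cdk4 (0.0801) missed the threshold, and without all replicate 2 libraries Cdk2 (0.0575), Cdkn1b (0.0589) and Cdk4 (1.01, adjusted p 0.325).

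In the membrane fraction 0 of 10 genes passed between polysomes and monosomes in either state, beside 3.95% of all genes in differentiating and 0.796% in proliferating cells. At an unadjusted p under 0.05 there were 2 of 10 in each state. Over all 11176 genes there were 2238 in differentiating and 1572 in proliferating cells. DESeq2 called 0 of the 10. Some of these genes passed with the replicate number as a block, here and in other gradient comparisons with 0 calls, as given below. The labels do not say that same-numbered libraries share a culture. Rb1 averaged 28.0 CPM in polysomes and 27.2 CPM in monosomes of differentiating membrane, and 13.4 CPM in both parts of proliferating membrane. The difference of the polysome to monosome ratio between the states, averaged over fractions, passed for 0 of 10 genes with edgeR (0% of all genes) and DESeq2. Cdkn1b had an unadjusted p under 0.05, as did 542 of 11176 genes.

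**Figure D4:**
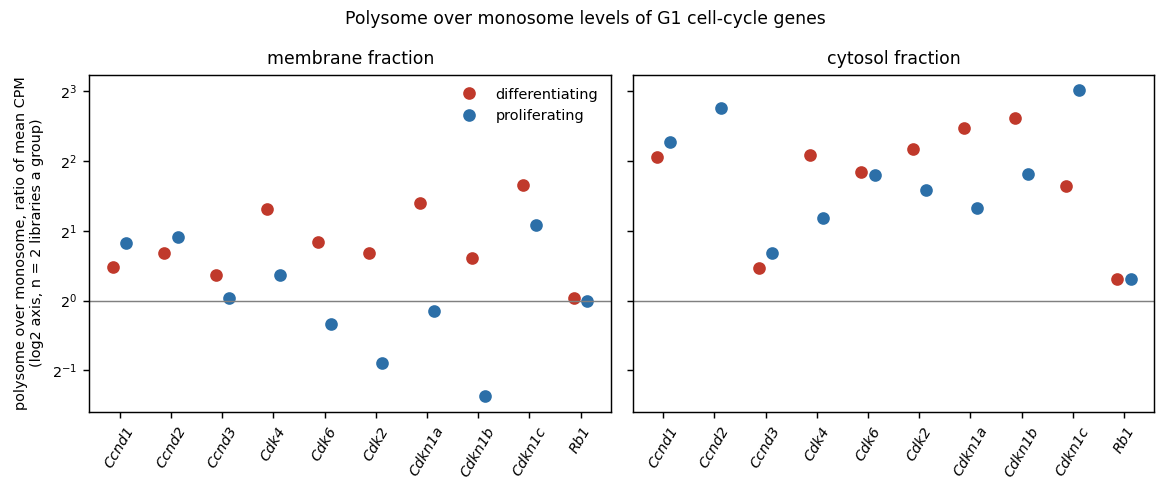
Polysome over monosome ratio of mean CPM (vertical axes, log2 scale) for each gene in the membrane (left) and cytosol (right) fraction, with differentiating cells in red and proliferating cells in blue. Cytosol points lie above 1. In proliferating membrane, Cdkn1b (0.387), Cdk2 (0.536), Cdk6 (0.796), Cdkn1a (0.903) and Rb1 (0.998) lie below 1. With the scaling used in the fits, the log2 fold changes there were below 0 for Cdkn1b (-0.99) and Cdk2 (-0.52). They were above 0 for Cdk6 (0.0099), Cdkn1a (0.24) and Rb1 (0.41), and none passed. Ccnd2 of differentiating cytosol has no point because its monosome libraries held 0 reads.

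These genes encode nuclear or cytosolic proteins that lack a signal for the endoplasmic reticulum. Between membrane and cytosol of proliferating cells 2 of 10 passed, beside 34.8% of all genes. Cdkn1b was higher in membrane (1.48, SE 0.33, adjusted p 0.00307), as were 23.2% of all genes. Cdk4 was lower (-1.09, SE 0.39, adjusted p 0.0444), as were 11.5%. In differentiating cells 0 of 10 passed with edgeR or DESeq2, beside 19.7% of all genes with edgeR. At an unadjusted p under 0.05 there were 0 of 10, beside 3687 of 11176 genes. The difference between the states passed for 0 of 10 genes and for 0% of all genes with edgeR, and 0 of these genes had an unadjusted p under 0.05 or passed with DESeq2. The Cdk4 call was lost without proliferating cytosol polysome replicate 1 (0.0713) or 2 (0.0752), without proliferating membrane polysome replicate 1 (0.108), membrane monosome replicate 1 (0.0612) or cytosol monosome replicate 2 (0.148), and without differentiating cytosol monosome replicate 1 (0.0560) or 2 (0.0566). The other G1/S regulators had 5 of 25 lower in proliferating membrane and 0 higher.

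The membrane excess of Cdkn1b was found in monosomes. In proliferating monosomes Cdkn1b had 182 and 112 CPM in membrane, against 18.5 and 11.0 CPM in cytosol, a ratio of means of 9.97. In proliferating polysomes it had 70.8 and 43.1 CPM in membrane, against 50.6 and 53.5 CPM in cytosol, and these overlapped. Cdk2 also overlapped in polysomes and not in monosomes, with 121 and 126 CPM in membrane and 22.4 and 40.2 CPM in cytosol monosomes, but 56.3 and 75.9 CPM in membrane and 74.0 and 114 CPM in cytosol polysomes. A test of this difference, added after seeing the data, compared membrane minus cytosol in monosomes with that in polysomes of proliferating cells. Cdkn1b (2.73, SE 0.65, adjusted p 0.0210) and Cdk2 (2.04, SE 0.50, adjusted p 0.0249) passed, which is 2 of 10 beside 7.29% of all genes, and 1.1% of all genes in that direction.

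Both calls rested on few libraries. The Cdkn1b call was lost without cytosol polysome replicate 1 (0.0533) or 2 (0.0716), membrane polysome replicate 2 (0.113), membrane monosome replicate 1 (0.0704) or cytosol monosome replicate 2 (0.0898) of the proliferating cells. The Cdk2 call was lost without membrane polysome replicate 1 (0.0695), cytosol polysome replicate 2 (0.0862), cytosol monosome replicate 1 (0.107) or membrane monosome replicate 2 (0.0607), without either differentiating replicate (0.0608 and 0.0616), and with the proliferating libraries fitted alone (0.0565).

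In differentiating cells Cdkn1b had 32.5 and 60.8 CPM in membrane monosomes, against 10.7 and 14.8 CPM in cytosol monosomes, and Cdk2 36.1 and 35.6 CPM in membrane, against 12.5 and 16.5 CPM in cytosol monosomes. These did not overlap, but 0 of 10 genes passed the same test there with edgeR (4.1% of all genes) or DESeq2. Cdk2 and Cdkn1b had an unadjusted p under 0.05, as did 1737 of 11176 genes. RNAs known to stay in the nucleus were high in the same libraries: Neat1 had 624 and 291 CPM in proliferating membrane monosomes, against 16.1 and 7.73 CPM in cytosol monosomes, and Malat1 33.9 and 21.5 CPM in membrane, against 7.03 and 4.86 CPM in cytosol monosomes. Summed over both, membrane monosomes held 29.2 to 163 CPM in differentiating and 313 to 658 CPM in proliferating cells. Their part in the Cdkn1b and Cdk2 values was not tested.

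The whole-fraction pair of proliferating cells, with 1 library each and intervals for counting error only (95% exact Poisson), came from fractions not run on a gradient. Cdk4 had 104 CPM (96.5 to 113) in membrane and 222 CPM (210 to 235) in cytosol. Cdkn1a had 193 CPM in membrane and 409 CPM in cytosol, Ccnd3 223 CPM in membrane and 444 CPM in cytosol, and Ccnd1 34.3 CPM in membrane and 68.0 CPM in cytosol. All 4 were lower in membrane. Cdkn1b had 49.1 CPM (43.7 to 55.0) in membrane and 43.0 CPM (37.9 to 48.7) in cytosol, so that its intervals overlapped. Cdk2 had 79.3 CPM in membrane and 93.7 CPM in cytosol.

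RNA-seq of proliferating cells, with reads counted in the constitutive and the alternative part of the 3' UTR, also covered the insoluble material. Cdkn1b had 92.0 CPM (84.8 to 99.7) in membrane, 232 CPM (218 to 247) in insoluble material and 89.2 CPM (80.6 to 98.5) in cytosol. Cdk2 had 42.3 CPM in membrane, 108 CPM in insoluble material and 67.9 CPM in cytosol. Both were highest in insoluble material, whereas Cdkn1a (766 CPM in membrane, 629 CPM in insoluble material, 1340 CPM in cytosol) and Ccnd3 (227 CPM in membrane, 165 CPM in insoluble material, 337 CPM in cytosol) were lowest there. Ccnd1 had 668 CPM in membrane, 675 CPM in insoluble material and 1181 CPM in cytosol, above Ccnd3 in each. RNA-seq reads do not each mark 1 transcript end, so levels of different genes cannot be set side by side there. With 1 library each there is no replicate check.

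Most of these genes used 1 poly(A) site. In coordinates of mm9, the main site took 100% of reads in Cdkn1c (chr7:150644244, minus strand), 99.2% in Cdk2 (chr10:128135000, minus), 98.0% in Cdkn1b (chr6:134875531, plus) and 97.8% in Cdkn1a (chr17:29237667, plus). It took 97.6% in Ccnd3 (chr17:47736638, plus), 97.0% in Cdk4 (chr10:126504341, plus) and 93.7% in Rb1 (chr14:73595309, minus). Ccnd1, Ccnd2 and Cdk6 were spread over 21, 29 and 40 sites, with 34.6%, 36.8% and 39.8% of reads at the main one (chr7:152118385, minus; chr6:127078889, minus; chr5:3521069, plus). The site table marks no gene regions, so that 3' UTR sites and sites in introns could not be separated.

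For Ccnd1 the sites formed a near cluster of 4 sites at the main one and 14 sites further along, the last 2549 nt beyond. The far sites took 71.4% and 52.9% of reads in differentiating membrane polysomes, from 21 and 51 reads, and 52.3% and 55.1% in proliferating ones. In cytosol polysomes they took 42.5% and 43.5% in differentiating and 52.2% and 50.3% in proliferating cells. The ratio of the pair of main sites did not pass the test with cell state (0 of 1 gene that could be fitted, beside 1.54% of all pairs), with fraction (1.05%) or with gradient part (1.01%), and the unadjusted p was above 0.05 in each. The Cdk6 pair could not be fitted at its depth.

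Ccnd3 had a minor site 4262 nt before its main one, at chr17:47732376. It took 0.0806% to 1.60% of reads (median 1.12%) in differentiating and 1.18% to 4.38% (median 2.97%) in proliferating libraries. With pairs admitted from 1% of reads in the rarer site, a setting added after seeing the data, the shift to the distal site passed (log2 ratio change 1.60, SE 0.31, adjusted p 0.0124), beside 0.95% of 6211 pairs. Cdkn1a had a change of 0.80 in the same direction that missed the threshold (adjusted p 0.123). That setting was not repeated with libraries left out.

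At Cdk4 the assays differed. In RNA-seq the alternative part of the 3' UTR took 67.0% of reads (exact 95% interval 65.3% to 68.7%) in membrane, 42.6% (39.6% to 45.5%) in insoluble material and 10.1% (8.51% to 11.8%) in cytosol. In 3' end libraries the distal site took 97.0% of all Cdk4 reads. That is a share of transcript ends and not of reads along the 3' UTR, so these percentages cannot be set side by side. A poly(A) site of Tspan31, a tetraspanin gene read from the opposite strand, lies 4 nt beyond the Cdk4 distal site, and the main Tspan31 site on that strand is at chr10:126504878. Summed over both strands, Tspan31 had 10.8 and 14.0 CPM in membrane and 7.74 and 4.60 CPM in cytosol polysomes of proliferating cells. Over all libraries its site at chr10:126504878 held 692 reads, and a site on the strand of Cdk4, at chr10:126508157, held 960. No source used here says if RNA-seq reads were counted by strand, and without strand the reads of this pair of genes cannot be told apart.

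Puromycin gave no call over time. In the 8 puromycin libraries Ccnd2 was too low to test. With edgeR or DESeq2, 0 of 9 genes passed for a slope with minutes of puromycin, beside 0.423% of all genes with edgeR. The slope was shared by both fractions, so opposite changes in membrane and cytosol could cancel. Libraries of the same exposure were taken as separate. At an unadjusted p under 0.05 there were 0 of 9, beside 850 of 9919 genes. Some levels still varied along the series. Cdkn1b had 37.0, 41.1, 50.5 and 58.2 CPM in membrane of untreated cells and at 0, 30 and 60 min, and 26.7, 35.4, 29.5 and 41.5 CPM in cytosol. The nuclear RNAs Neat1 and Malat1 summed to 127, 177, 275 and 572 CPM in the same membrane libraries and 18.2, 11.4, 8.14 and 10.1 CPM in the cytosol ones, and their part in the Cdkn1b values was not tested. Cdkn1a had 165, 118, 148 and 146 CPM in membrane in the same order, and 252, 146, 133 and 122 CPM in cytosol. For Cdkn1a and Cdk4 the untreated and the 0 min library, both without exposure time, were further apart in cytosol than the 0, 30 and 60 min libraries were from each other. Cdk4 had 80.0, 50.7, 69.5 and 89.3 CPM in membrane and 169, 108, 97.4 and 100 CPM in cytosol.

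With no exposure, Cdk4 (-1.20, SE 0.17, adjusted p 0.00554) and Cdkn1a (-0.55, SE 0.18, adjusted p 0.0486) were lower in membrane than in cytosol, which is 2 of 9 beside 47.2% of all genes in either direction and 21.4% in that direction. Both calls were lost without the untreated pair (adjusted p 0.158 and 0.322) or without the 0 min pair (0.131 and 0.203), and the Cdkn1a call with DESeq2 (0.0856). The change of membrane minus cytosol per 30 min passed for 0 of 9 genes and for 0% of all genes with edgeR. DESeq2 called 0 of the 9. Cdk4 had the only unadjusted p under 0.05 among the 9, with a change of 0.42 (SE 0.15, adjusted p 0.158) per 30 min. Over all 9919 genes, 2535 had such a p. The 8 markers of the endoplasmic reticulum had a median change of -2.62 and gave 0 calls too. This slope could therefore miss large changes, and its 0 calls do not show that a change was absent. With exposure coded as exposed against not exposed, some of the 9 passed, as given below. The far sites of Ccnd1 took 45.9% (40.1% to 51.8%), 34.3% (28.2% to 40.9%), 30.3% (24.9% to 36.2%) and 21.5% (17.0% to 26.7%) of its reads in membrane of untreated cells and at 0, 30 and 60 min. In cytosol they took 37.8%, 22.0%, 21.2% and 22.4% in that order. Without replicates this order has no test.

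**Figure D5:**
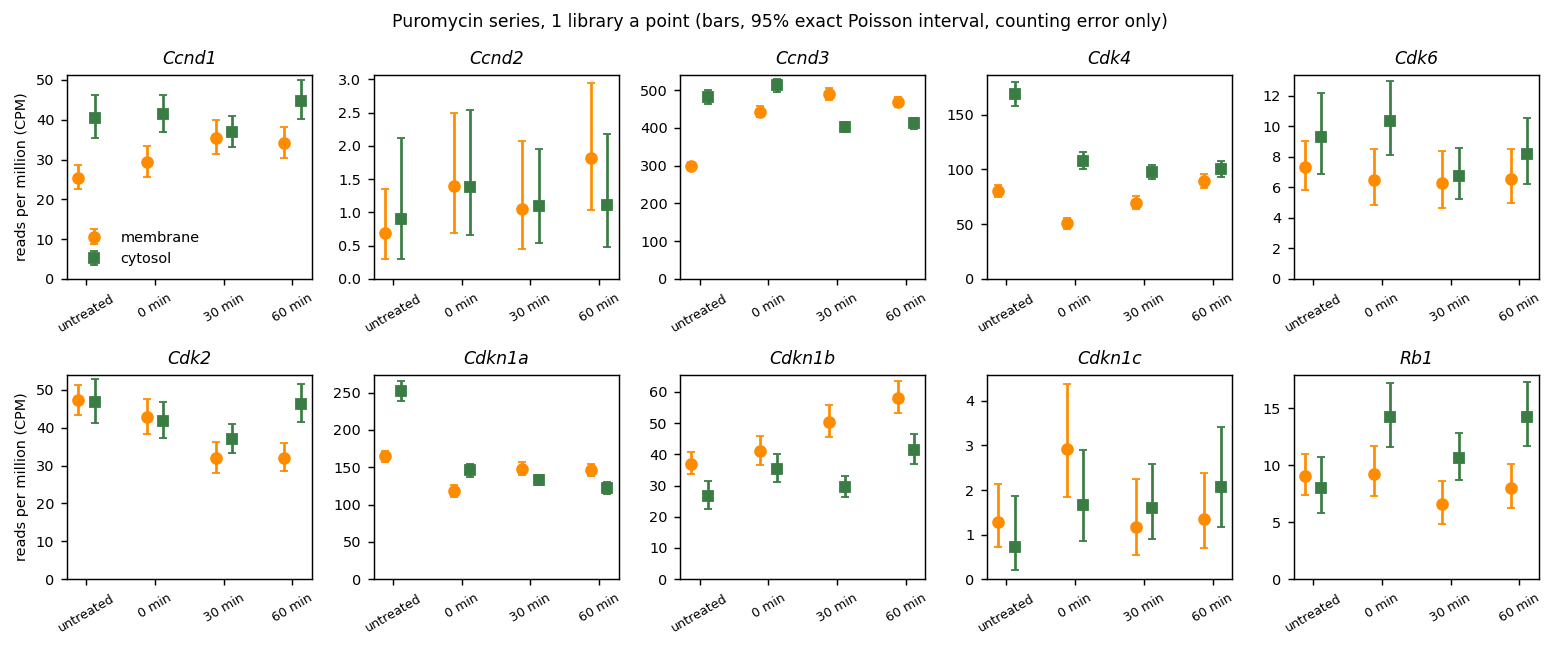
CPM of each gene (vertical axes, each from 0) in the puromycin series, from untreated cells to 60 min (horizontal axis), with membrane as circles and cytosol as squares, 1 library per point and 95% exact Poisson intervals for counting error. Cdk4 has 169 CPM in untreated cytosol and 97.4 to 108 CPM in the other cytosol libraries, and Cdkn1b has 37.0 to 58.2 CPM in membrane.

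Over the 8 gradient groups, likeness was measured as the root mean square difference between centred log2 levels, over 6672 or 6673 genes with a mean of at least 10 CPM. Among the genes nearest to Ccnd1 were the cytokinesis gene Racgap1 (0.23) and the mitotic gene Cdca8 (0.23). Nearest to Ccnd3 were Sync (0.15), an intermediate filament gene of muscle, Narf (0.16) and Dtna (0.18). Cdkn1a was nearest to the creatine kinase Ckb (0.18), Rab3il1 (0.28) and Mapre3 (0.34), and Cdkn1c to Car3 (0.40), S100a16 (0.44) and the muscle filament gene Des (0.49). Cdkn1b was nearest to D11Wsu47e (0.19), Cdk2 to Trim3 (0.15), Cdk4 to Coq7 (0.17) and Rb1 to Ing4 (0.17).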

How the data were processed

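Read counts at poly(A) sites of 26 3'READS+ libraries and in the constitutive and alternative parts of 3' UTRs of 3 RNA-seq libraries were used as deposited; the values are raw counts per the file headers. Per the submitters' processing notes, the build was mm9 and the tools were cutadapt, Bowtie2 and STAR 2.5.2; which step used which tool, and how reads were counted, is not given in the sources used here. Left out were 651 positions that carry several symbols (0.56% of reads, 0 of them at the genes reported). A gene's count is the sum over its remaining sites.

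CPM were taken over all remaining reads of a library. After filterByExpr and TMM scaling, genes were compared by edgeR 4.0.16 in R 4.3.3 (quasi-likelihood F test, robust), with Benjamini-Hochberg adjustment over all genes tested and a threshold of 0.05. The fit held all 16 gradient libraries, each of the 8 groups having its own mean; cell state was averaged over the 4 combinations of fraction and gradient part. The SE is the size of the log2 fold change divided by the square root of F. For isoforms, the pair of most abundant sites at most 10 kb apart was used, with a mean of at least 10 reads and at least 5% in the rarer site. In the puromycin series, untreated was coded as 0 min. The fit was tested on simulated data with 200 changed genes. All 10 genes are named in every comparison; of other lists, at most 4 genes per direction with the lowest p. Members, lists and tests were chosen with earlier results of these data known. Intervals are exact at 95% and cover counting error only. Alternatives were DESeq2 1.42.0 and its size factors, no filter, a replicate block, fits within 1 state, and libraries left out.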

Additional observations from a re-analysis of the deposited data

Results flagged for a closer look

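Membrane minus cytosol differed between gradient parts for Cdkn1b and Cdk2 in proliferating cells, in a test added after seeing the data. Both calls of that test were lost without any one of several single libraries. Over both gradient parts, Cdk2 did not pass between membrane and cytosol (0.54, edgeR adjusted p 0.109). Membrane minus cytosol in monosomes exceeded that in polysomes by 2.73 on the log2 scale for Cdkn1b (edgeR adjusted p 0.0210) and by 2.04 for Cdk2 (edgeR adjusted p 0.0249).

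The polysome over monosome ratio of Cdk2 in membrane had opposite signs in the cell states. As a ratio of mean CPM it was 0.68 on the log2 scale in differentiating cells, where both polysome libraries were above both monosome libraries, and -0.90 in proliferating cells, where both were below. The fitted log2 fold changes were 0.66 (edgeR adjusted p 0.333) in differentiating and -0.52 (edgeR adjusted p 0.541) in proliferating cells, and neither passed. This difference within the membrane fraction was not tested.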

How the results depend on the processing

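Counts below are members that passed with edgeR unless another tool is named. Cell state gave 7 to 8 members in the settings other than leaving libraries out, and 4 to 8 with libraries left out. The state change of Cdkn1b reversed with DESeq2 size factors (0.042), no filter (0.017) and DESeq2 (0.0421), and ranged from -0.51 to 0.32 with libraries left out; its cause was not tested. With libraries left out, membrane against cytosol gave 0 to 1 members in differentiating and 1 to 2 in proliferating cells, polysome against monosome in cytosol 2 to 5 in differentiating and 0 to 6 in proliferating cells, and the fraction by gradient difference 0 to 2 in proliferating cells; the remaining comparisons of gradient libraries gave 0 throughout. Same-numbered replicates are not said to share a culture. With the replicate number as a block, membrane against cytosol gave 3 members in differentiating and 4 in proliferating cells, with 1 for the difference between states. In the same blocked fit polysome against monosome gave 4 in differentiating membrane, 3 in proliferating membrane and 9 in proliferating cytosol (in membrane Cdk2, Cdk4, Cdkn1a and Cdkn1c of differentiating and Ccnd1, Cdk4 and Cdkn1b of proliferating cells), with 2 for the difference between states, and fraction by gradient gave 2 in differentiating and 4 in proliferating cells. Deviations of same-numbered libraries correlated at 0.469 to 0.725 within a state and 0.0985 to 0.255 between states. Fitted with only its own state, differentiating cytosol gave 2 and fraction by gradient in proliferating cells 1. The isoform change with state gave 1 with pairs from 1% of reads. Membrane against cytosol in the puromycin series gave 1 without the filter, 1 with DESeq2, 5 with exposed against not exposed, 0 without the untreated pair, 0 without the 0 min pair, 4 without the 30 min pair and 4 without the 60 min pair. Its change with minutes gave 3 with exposed against not exposed and 1 without the 30 min pair. Ccnd2, Cdk6 and Cdkn1c are limited by depth, with fewer than 10 reads in several monosome libraries.

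Over all genes tested, the replicate block gave 4850 calls against 2200 without it for membrane against cytosol in differentiating and 6273 against 3887 in proliferating cells, and 514 against 0 for the difference between states. For polysome against monosome it gave 5158 against 2673 in differentiating and 5360 against 2714 in proliferating cytosol, 3315 against 442 in differentiating and 2578 against 89 in proliferating membrane, and 280 against 0 for the difference between states. For fraction by gradient it gave 2089 against 458 in differentiating and 3180 against 815 in proliferating cells, and for isoforms 378 against 70 with state, 369 against 48 with fraction and 349 against 46 with gradient part. DESeq2 called 940 in differentiating and 370 in proliferating membrane polysome against monosome, 790 and 1262 in the fraction by gradient tests in that order of states, 14 and 36 in the differences of fraction and gradient between states, and 115 with minutes of puromycin. Fits within 1 state called 106 in differentiating and 0 in proliferating membrane polysome against monosome, and 224 for fraction by gradient in differentiating cells. With minutes of puromycin, 42 genes were called, but 64 without the filter, 9 with exposed against not exposed and at most 1 without any pair. Membrane against cytosol with no exposure gave 4679 calls, and 0 without the untreated or the 0 min pair, where 1 pair without exposure is left. Its change with minutes gave 0, but 1192 with DESeq2, 3911 with exposed against not exposed, 2611 without the 30 min pair and 2426 without the 60 min pair.

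DESeq2 size factors moved the median log2 fold change over all genes to -0.0044, against 0.17 with TMM, for membrane against cytosol in proliferating cells, with 2231 higher and 1815 lower calls, against 2597 and 1290. For polysome against monosome the median moved to -0.10, against 0.073, in differentiating cytosol (1124 higher and 1537 lower, against 1409 and 1264), to 0.088, against 0.24, in differentiating membrane (134 and 253, against 229 and 213), and to 0.041, against 0.22, in proliferating membrane (18 and 73, against 40 and 49).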
